A study of Mus musculus with 8 samples.

Results

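The genes described here are 48 genes of N-glycosylation and glycan processing in mouse liver. They were chosen by name for their role, with earlier results of these data known: 12 assemble the lipid-linked glycan, 6 make or recycle dolichol and its sugar donors, 10 encode subunits of oligosaccharyltransferase, 3 are glucosidases of the endoplasmic reticulum (ER), 11 are Golgi glycan enzymes and 6 supply hexosamine or mannose. All 48 were found among the 52551 rows of each count table, and 41 of them were among the 8669 genes with enough reads to be tested. The libraries came from livers of male C57BL/6 mice at 6 weeks of age, 4 labelled PiZ/Chop-/- and 4 labelled PiZ. Both groups carry the PiZ transgene, human SERPINA1 with the Z variant, whose product alpha-1 antitrypsin misfolds and is held in the ER of hepatocytes. PiZ/Chop-/- mice also lack Chop, the gene Ddit3, which encodes a transcription factor of the ER stress response. The comparison asks which transcripts differ when CHOP is absent from livers that hold misfolded alpha-1 antitrypsin. A wild-type group named in the design was not analysed here, and the sources used here state neither the promoter of the transgene nor the extent of the deletion.

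N-glycosylation starts on the ER membrane, where enzymes named Alg build a branched glycan on the lipid dolichol, sugar by sugar. Oligosaccharyltransferase (OST) moves the finished glycan onto asparagines of proteins entering the ER, glucosidases trim it so that calnexin and calreticulin can bind the folding protein, and Golgi enzymes rebuild it into the branched, sialylated form found on plasma proteins. The liver secretes most plasma glycoproteins, and alpha-1 antitrypsin is one of them. In the unfolded protein response the factors ATF6 and XBP1 are known to raise many genes of ER folding and glycosylation.

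Promoter sequences (RefSeq, GRCm38.p6, 250 bases before to 50 after each start) were at hand for 39 of the 48 genes, and 3 are shown because their genes had lower values in PiZ/Chop-/- livers and hold a stress-response motif on their own strand, wholly before a RefSeq start. They were chosen after the values were seen. The first holds the ER stress element ERSE (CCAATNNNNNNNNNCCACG), which ATF6 binds together with NF-Y, at positions -220 to -202 from the start. The others hold CCACGT, a core bound by XBP1 and ATF6, at -123 to -118 in Gfpt1 and at -20 to -15 from the earlier RefSeq start of Krtcap2. GENCODE M21 begins Krtcap2 further upstream, at 89245966 on chromosome 3, so the Krtcap2 motif lies inside that gene model. Capitals mark the motif, and each sequence runs 5′ to 3′ on the strand of its gene.
Alg12, chr15:88819475-88819568, minus strand: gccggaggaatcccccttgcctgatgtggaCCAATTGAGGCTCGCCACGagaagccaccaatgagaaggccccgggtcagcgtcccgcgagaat
Gfpt1, chr6:87042678-87042773, plus strand: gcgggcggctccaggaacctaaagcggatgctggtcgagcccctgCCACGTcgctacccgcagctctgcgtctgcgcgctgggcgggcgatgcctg
Krtcap2, chr3:89246373-89246437, plus strand: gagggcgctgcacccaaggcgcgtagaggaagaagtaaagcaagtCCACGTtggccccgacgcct

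Both strands of all 27025 genes with a promoter were searched for 4 motifs. ERSE was found in 1 of the 39 genes (2.56%), Alg12, and in 0.137% of all genes. ERSE-II (ATTGGNCCACG) was found in Krtcap2 alone (2.56%), at 18 to 28 bases after the later RefSeq start, and in 0.0444% of all genes. CCACGT was found in 6 of the 39 (15.4%), namely Krtcap2, Alg6, Dolk, Ganab, Gfpt1 and Pgm3, and in 9.4% of all genes. The element TGATGNAA, bound by pairs of C/EBP and ATF factors, of which CHOP and ATF4 form one, was found in 1 of the 39 (2.56%), Fut8, and in 4.51% of all genes. ERSE and ERSE-II end in CCACG and so can overlap CCACGT, although in these genes none did. A match gives the letters of a motif and no evidence that a factor binds there, and of the genes with CCACGT, Krtcap2, Alg6 and Gfpt1 had log2 fold changes below 0, Dolk and Ganab above 0, and Pgm3 was not tested. In Alg6 the motif lies before the start on the opposite strand.

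Total counts ran from 1650260 to 3064385 per library, and the 48 genes drew between 5887 and 12215 of them. Ddit3 followed the labels in all 8 libraries, with 3.72, 1.72, 2.48 and 4.19 CPM in PiZ/Chop-/- libraries 1 to 4 against 191, 141, 191 and 85.4 CPM in PiZ libraries 1 to 4. CPM is the usual unit of counts scaled to the effective size of each library. The kit reads only the 3′ end of each transcript, so a CPM is not a level per gene length and levels are compared here between libraries and not between genes. The human SERPINA1 transcript, the glycoprotein cargo, was lower too, at 554 to 712 CPM in PiZ/Chop-/- livers against 950.2 to 1845 CPM in PiZ livers (log2 fold change -1.23, SE 0.22, adjusted p = 0.00873). Hepatocyte markers had summed levels of 26965 to 35515 CPM in PiZ/Chop-/- livers and 27076 to 36737 CPM in PiZ livers. In bulk liver, fewer cells of a type and less RNA per cell cannot be told apart. Nothing in the labels ties a library to a mouse of its own, and the p-values therefore rest on a spread between libraries that may be technical. Below, values per library are listed in the order of libraries 1 to 4, fold changes are log2 values of PiZ/Chop-/- against PiZ, and adjusted p-values come from edgeR's quasi-likelihood test with Benjamini-Hochberg adjustment over all 8669 genes.

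No gene of the 41 passed the adjusted threshold of 0.05, in either direction, while 1.03% of all tested genes did (0.692% lower and 0.335% higher). At an unadjusted p below 0.05, 9 of the 41 were lower in PiZ/Chop-/- livers and 0 were higher, where 6.85% of all tested genes were lower and 6.29% higher. DESeq2, run without the expression filter on 19847 genes and all 48 members, called 1 member, Ostc, and limma-voom called 0. The median log2 fold change of the 41 was -0.15, and 29 of the 41 were below 0 (70.7%), beside a median of -0.0016 and 50.2% below 0 over all tested genes. Since the genes were chosen with earlier results known, these shares are a description. Single values ran from -1.09 for Alg12 to 0.42 for St6gal1. For 2 of the 41, Ostc and Dpm2, the PiZ/Chop-/- and PiZ values did not overlap, and both were lower without CHOP. Over all tested genes 7.88% did not overlap, 4.22% lower and 3.66% higher. The count of 9 changed when 1 library was left out: it was 3 without PiZ/Chop-/- library 3, 4 without PiZ/Chop-/- library 4, PiZ library 1 or PiZ library 4, and 15 without PiZ/Chop-/- library 2. Each fit without a PiZ/Chop-/- library tested 43 of the genes. Of these fits, the share over all genes was taken only for the last, at 7.61% lower. The other counts, and those by role below, have no such share beside them, and fewer libraries also weaken the test. Differences between the roles described below were not tested.

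**Figure D1:**
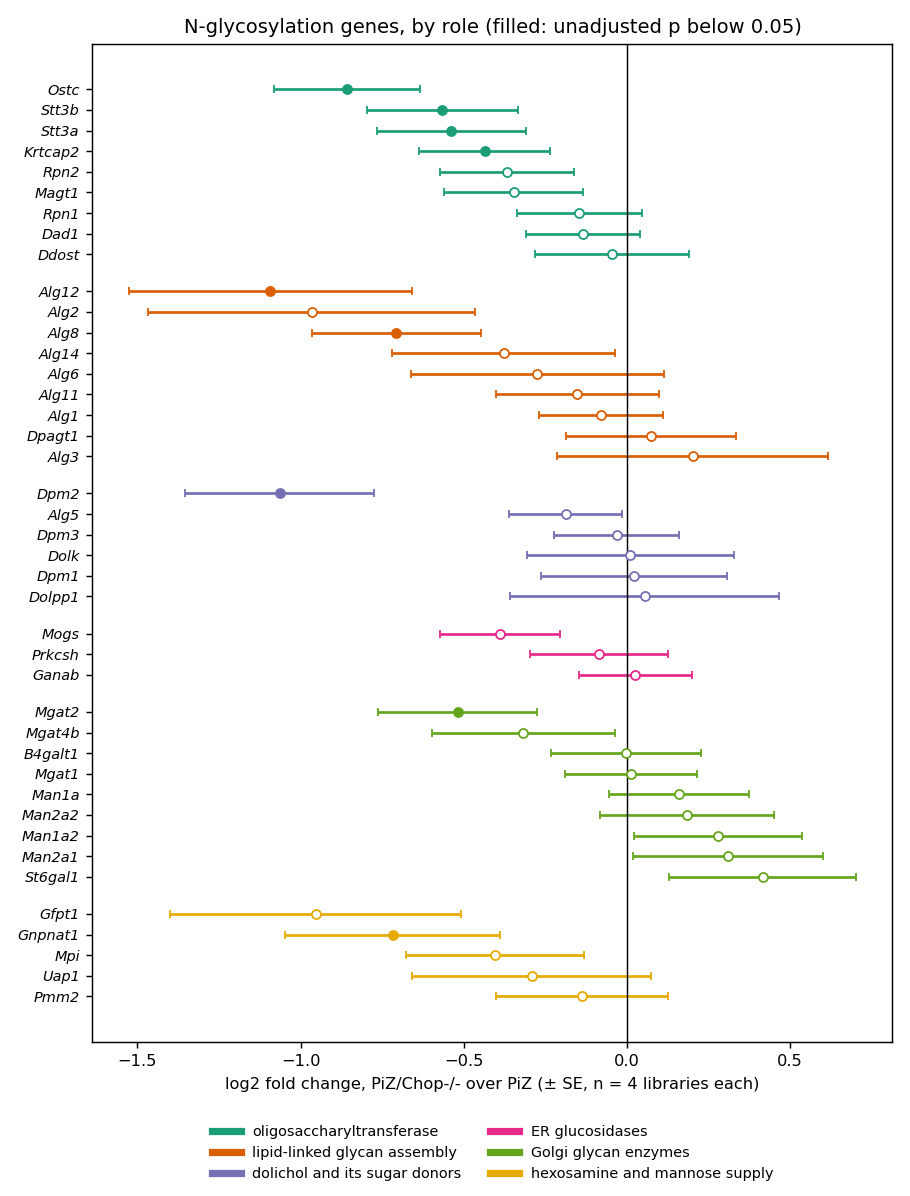
Log2 fold change (x axis, PiZ/Chop-/- over PiZ, ± SE, n = 4 libraries per group) of the 41 tested genes (y axis), coloured by role; filled points have an unadjusted p below 0.05. The 9 OST genes all lie left of 0, from -0.86 (Ostc) to -0.05 (Ddost), while 6 of 9 Golgi enzymes lie right of it.

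Among OST subunits 9 of the 10 were tested and all 9 fold changes were below 0, with a median of -0.37, 4 of them at an unadjusted p below 0.05 and 0 past the adjusted threshold. The 4 became 1 without PiZ/Chop-/- library 1, 3 or 4 or PiZ library 4, and 2 without PiZ library 1. With 1 library left out the median ran from -0.25 (without PiZ library 4) to -0.51 (without PiZ/Chop-/- library 2). Ostc, a subunit found only in the complex built on Stt3a, which works as the protein enters the ER, stood at 216, 249, 148 and 167 CPM in PiZ/Chop-/- livers and at 429, 286, 267 and 431 CPM in PiZ livers. Every PiZ/Chop-/- library was below every PiZ library. The fold change of Ostc (chr3:130695912-130709444, minus strand, mm10) was -0.86 (SE 0.22, adjusted p = 0.0861), which is 1.81-fold lower. It passed in 3 of 17 other fits. These were DESeq2 without the expression filter (adjusted p = 0.0344), edgeR without a filter on low counts (0.00762) and edgeR without PiZ/Chop-/- library 2 (0.0493). The fits without a filter covered 19847 genes. Library 2 had the highest PiZ/Chop-/- value of Ostc, so a wider difference without it was built in. Over the 17 fits the adjusted p of Ostc reached 0.351, and its fold change was -0.50 without PiZ libraries 1 and 4.

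The other genes particular to the Stt3a complex were lower by smaller amounts. Stt3a, its catalytic subunit, had 27.4, 36.2, 18.9 and 27.0 CPM in PiZ/Chop-/- livers against 43.7, 35.5, 36.7 and 43.2 CPM in PiZ livers (-0.54, SE 0.23, adjusted p = 0.336). Only PiZ/Chop-/- library 2 reached into the PiZ range. For Krtcap2, another subunit of that complex, the values were 202, 212, 143 and 198 CPM in PiZ/Chop-/- livers and 206, 245, 229.6 and 340.3 CPM in PiZ livers (-0.44, SE 0.20, adjusted p = 0.371). The overlap again came from PiZ/Chop-/- library 2, which lay above PiZ library 1.

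Genes of the second complex, which adds glycans to sites that the first one skipped, pointed the same way. Stt3b, its catalytic subunit, stood at 25.1, 46.6, 30.8 and 32.6 CPM in PiZ/Chop-/- livers and at 56.6, 45.7, 39.9 and 57.9 CPM in PiZ livers (-0.57, SE 0.23, adjusted p = 0.312). Its oxidoreductase partner Magt1 had 438, 609, 299 and 442 CPM in PiZ/Chop-/- livers against 570.2, 572, 632 and 499 CPM in PiZ livers (-0.35, SE 0.21, adjusted p = 0.514). In both genes PiZ/Chop-/- library 2 was inside the PiZ range and the other 3 libraries of its group were below it. Tusc3, the alternative to Magt1, had 51 reads over the 8 libraries and was not tested.

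Of the subunits that both complexes share, none had an unadjusted p below 0.05. Rpn1, ribophorin I, had 416, 402, 282 and 294 CPM in PiZ/Chop-/- livers and 427, 335, 364 and 417 CPM in PiZ livers (-0.15, SE 0.19, adjusted p = 0.792). Rpn2 was at -0.37 (adjusted p = 0.465), Dad1 at -0.14 (0.790) and Ddost at -0.05 (0.958), with groups that overlapped in each. The 95% interval of Ddost was -0.54 to 0.45, and a difference between shared and particular subunits was not tested. Another 3 OST subunits or partners were listed beside these, and 0 passed the adjusted threshold. Mlec, malectin, a lectin that binds glucosylated glycans at OST, had 98.0, 97.1, 78.4 and 82.4 CPM in PiZ/Chop-/- livers against 121, 119.5, 125 and 179.9 CPM in PiZ livers, with no overlap (-0.62, SE 0.19, adjusted p = 0.170). Tmem258 was at -0.59 (adjusted p = 0.402) and Ost4, a very small subunit, at 0.43 (0.681).

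**Figure D2:**
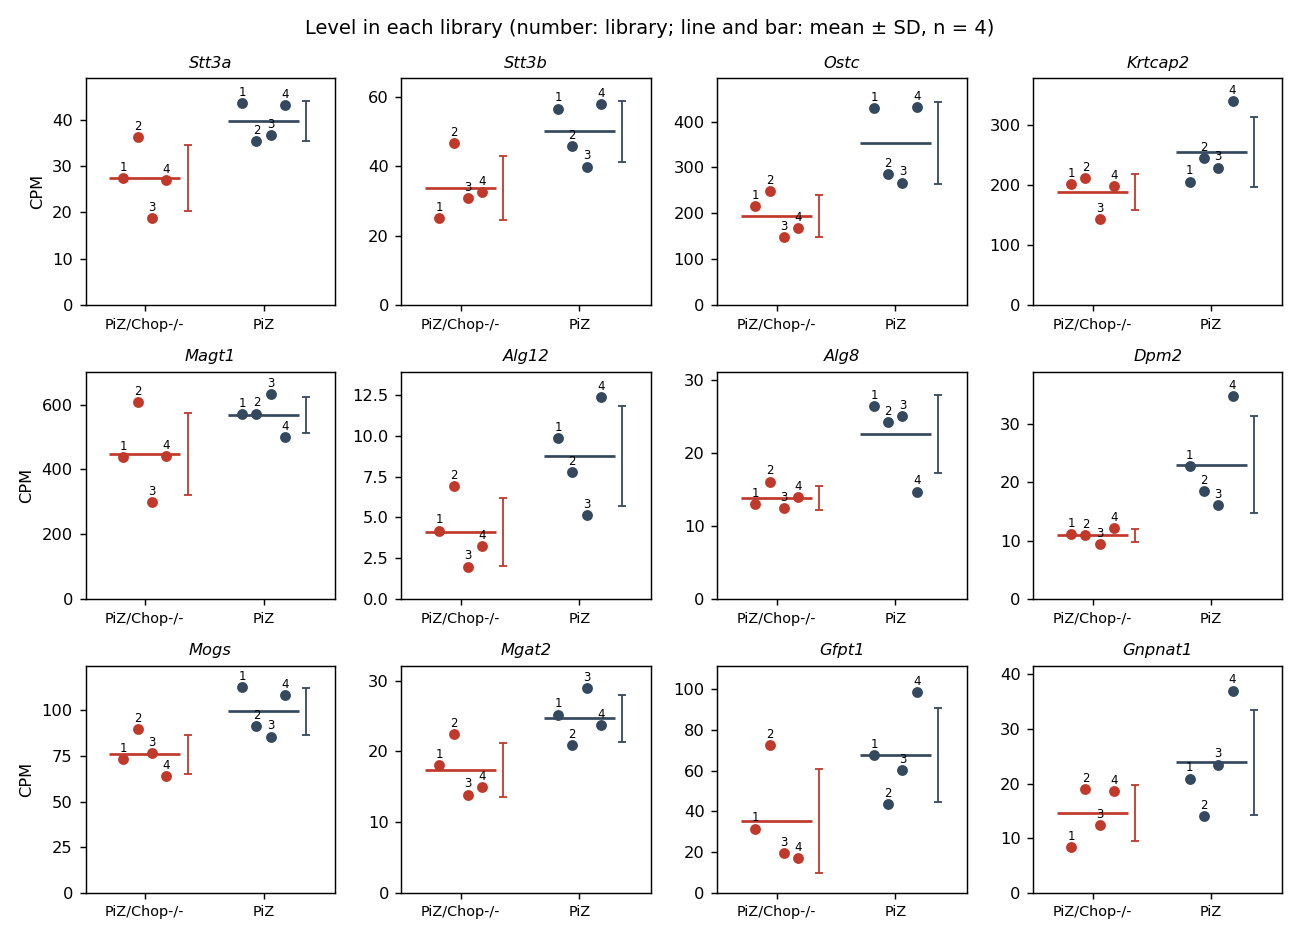
CPM (y axis, from 0) of 12 genes in each library (numbered points), PiZ/Chop-/- left and PiZ right, with the mean and SD of 4 libraries. For Ostc and Dpm2 the groups do not overlap, and for Gfpt1 PiZ/Chop-/- library 2 stands at 72.4 CPM, above PiZ libraries 1 to 3.

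With all 8 libraries, assembly of the lipid-linked glycan gave a mixed picture, with an imprecise value near 0 at its first step and lower values for some later transferases. Of the 12 genes, 9 were tested, 7 were below 0 (median -0.27), 2 had an unadjusted p below 0.05 and 0 passed the adjusted threshold. Leaving out PiZ/Chop-/- library 2 or 4 gave medians of -0.50 and -0.48, in that order, over 10 tested genes each. Leaving out PiZ library 4 gave -0.11, over 9. The count of 2 became 1 without PiZ library 1 or 4 or PiZ/Chop-/- library 3 or 4, and 4 without PiZ/Chop-/- library 1 or 2. Dpagt1, which starts the chain and is the target of tunicamycin, had 191, 206, 118 and 181 CPM in PiZ/Chop-/- livers and 143, 209, 218 and 90.6 CPM in PiZ livers (0.07, SE 0.26, adjusted p = 0.936). Its lowest and highest values were both in PiZ libraries, and the groups overlapped throughout. The 95% interval of Dpagt1 was -0.48 to 0.63, and its fold change ran from -0.29 to 0.24 over the other fits. Without PiZ libraries 1 and 4 all 9 tested assembly genes were below 0, and without PiZ/Chop-/- library 2 all 10 tested were.

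Alg8, a glucosyltransferase that adds the second glucose, stood at 13.0, 16.1, 12.4 and 14.0 CPM in PiZ/Chop-/- livers against 26.4, 24.3, 25.1 and 14.7 CPM in PiZ livers (-0.71, SE 0.26, adjusted p = 0.262). PiZ library 4 alone lay among the PiZ/Chop-/- values. Alg12, a mannosyltransferase of the ER lumen, had 4.18, 6.90, 1.99 and 3.26 CPM in PiZ/Chop-/- livers against 9.84, 7.77, 5.14 and 12.3 CPM in PiZ livers (-1.09, SE 0.43, adjusted p = 0.299), from 106 reads in all. Alg2, which adds early mannoses on the cytosolic face, had 6.04, 5.17, 0.993 and 1.40 CPM in PiZ/Chop-/- livers against 6.77, 8.26, 5.14 and 6.64 CPM in PiZ livers (-0.97, SE 0.50, adjusted p = 0.424), from 85 reads. With so few reads the intervals of the last pair are wide: -2.01 to -0.17 for Alg12 and -2.03 to 0.10 for Alg2. The other tested genes of assembly, Alg14, Alg6, Alg11, Alg1 and Alg3, lay between -0.38 and 0.20, with adjusted p from 0.683 to 0.902. Alg13, Alg9 and Alg10b, with 21, 99 and 26 reads, were not tested.

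Dolichol genes and those of the sugar donors had small values with all 8 libraries, except for Dpm2. Dpm2, which holds the dolichol-phosphate mannose synthase in the ER membrane, stood at 11.2, 10.9, 9.43 and 12.1 CPM in PiZ/Chop-/- livers and at 22.8, 18.5, 16.1 and 34.6 CPM in PiZ livers. The groups did not overlap, and PiZ/Chop-/- library 2 lay with the rest of its group. The fold change of Dpm2 (chr2:32570858-32573579, plus strand) was -1.06 (SE 0.29, adjusted p = 0.106), or 2.09-fold lower. Dpm2 passed in 1 of 17 other fits, that without a filter on low counts (adjusted p = 0.0468), and without PiZ libraries 1 and 4 its fold change was -0.65.

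The other subunits of the same enzyme had fold changes near 0. Dpm1, the catalytic subunit, had 13.5, 14.4, 21.3 and 17.2 CPM in PiZ/Chop-/- livers against 9.84, 15.5, 17.7 and 21.8 CPM in PiZ livers (0.02, SE 0.29, 95% interval -0.59 to 0.63, adjusted p = 0.986). Dpm3, which tethers Dpm1, was at -0.03 (interval -0.44 to 0.38, adjusted p = 0.965). Alg5, which makes the dolichol-linked glucose donor, was at -0.19 (adjusted p = 0.695), Dolk, dolichol kinase, at 0.01 (0.995) and Dolpp1, which recycles the used carrier, at 0.05 (0.970). Dolpp1 was at 1.06 without PiZ libraries 1 and 4 (SE 0.42, adjusted p = 0.308) and at -0.19 without PiZ library 3. Dhdds and Nus1, the subunits of the enzyme that builds the dolichol chain, were at -0.34 (adjusted p = 0.625) and -0.20 (0.718). Krtcap2 and Dpm3 lie 9451 bases apart on chromosome 3, with fold changes of -0.44 and -0.03, and a difference between them was not tested.

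Among the ER glucosidases, Mogs, glucosidase I, which removes the outermost glucose, had 73.4, 89.7, 76.5 and 63.8 CPM in PiZ/Chop-/- livers against 113, 91.3, 85.5 and 108 CPM in PiZ livers (-0.39, SE 0.18, adjusted p = 0.380). Only PiZ/Chop-/- library 2 was above the lowest PiZ library. Ganab, the catalytic subunit of glucosidase II, stood at 158, 156, 158 and 133 CPM in PiZ/Chop-/- livers and at 174, 134, 127 and 159.9 CPM in PiZ livers (0.03, SE 0.17, adjusted p = 0.968). Its partner Prkcsh had 239.7, 205, 176 and 262 CPM in PiZ/Chop-/- livers and 218, 278, 282 and 159 CPM in PiZ livers (-0.09, SE 0.21, adjusted p = 0.903). For both subunits of glucosidase II each group held values above and below those of the other.

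Genes that read or remove the glycan were tested in 12 of 13 cases. Of these 10 were below 0 (median -0.23), 1 at an unadjusted p below 0.05 and 0 past the adjusted threshold. Calr, calreticulin, the soluble lectin chaperone, stood at 1567, 2169.7, 1330.0 and 1240.5 CPM in PiZ/Chop-/- livers against 2642, 2198, 1877 and 1979.9 CPM in PiZ livers (-0.46, adjusted p = 0.376). Here too PiZ/Chop-/- library 2 alone reached the PiZ range. Next by p came Edem2, which acts on mannoses of misfolded glycoproteins (-0.54, adjusted p = 0.406), and Engase, a cytosolic enzyme that cuts free glycans (-0.71, 0.433).

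Golgi enzymes were mostly above 0: of 11 genes 9 were tested, 3 were below 0 and 6 above, with a median of 0.16, and 0 passed in either direction. The median was -0.01 without PiZ/Chop-/- library 3. Mgat2, which starts the second antenna of complex glycans, was the 1 member with an unadjusted p below 0.05, at 18.1, 22.4, 13.9 and 14.9 CPM in PiZ/Chop-/- livers against 25.2, 20.9, 28.9 and 23.7 CPM in PiZ livers (-0.52, SE 0.24, adjusted p = 0.377). Mgat1, which starts the first antenna, had 56.2, 59.2, 71.5 and 69.9 CPM in PiZ/Chop-/- livers and 64.0, 57.8, 50.8 and 82.6 CPM in PiZ livers (0.01, SE 0.20, adjusted p = 0.989). The groups thus overlapped in both genes.

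Later steps gave no called difference. St6gal1, which caps glycans of plasma proteins with sialic acid, had 19.5, 13.8, 29.3 and 19.1 CPM in PiZ/Chop-/- livers against 20.3, 11.2, 13.8 and 16.6 CPM in PiZ livers (0.42, SE 0.29, adjusted p = 0.572). B4galt1, which adds galactose, stood at 361, 363, 356 and 242 CPM in PiZ/Chop-/- livers and at 396, 394, 339.9 and 195 CPM in PiZ livers (-0.0021, SE 0.23, adjusted p = 0.998). Library 4 was the lowest of its group in both. The mannosidases Man1a, Man1a2, Man2a1 and Man2a2 lay between 0.16 and 0.31 and the branching enzyme Mgat4b at -0.32, all with groups that overlapped. Fut8, which adds the core fucose and is known to be low in normal hepatocytes, had 1, 1, 3 and 10 reads in PiZ/Chop-/- libraries and 0, 2, 4 and 0 reads in PiZ libraries. Neither Fut8 nor Mgat5, with 52 reads, was tested. Of 10 other trimming and branching genes 5 were tested and 0 passed; B4galt3 was at 0.45 (adjusted p = 0.600), Manea at -0.52 (0.602) and St3gal4 at 0.25 (0.712).

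In the hexosamine and mannose supply 5 of 6 genes were tested and all 5 fold changes were below 0 (median -0.40), 1 at an unadjusted p below 0.05 and 0 past the adjusted threshold. The median was -0.26 without PiZ library 1, over 5 genes, and -0.67 without PiZ library 2, where 6 were tested. The count of 1 became 0 without PiZ library 1 or 3 or PiZ/Chop-/- library 1 or 3, and 2 without library 2 of either group. Uap1 was at 0.08 without PiZ libraries 1 and 4, and Pmm2 at 0.03 without PiZ library 2. Gfpt1, the rate-limiting enzyme of the hexosamine pathway and a known target of XBP1, stood at 31.6, 72.4, 19.4 and 17.2 CPM in PiZ/Chop-/- livers against 67.7, 43.7, 60.1 and 98.7 CPM in PiZ livers. PiZ/Chop-/- library 2 was the second highest of all 8, and the other 3 libraries of its group were the lowest. The fold change of Gfpt1 (chr6:87042846-87092197, plus strand) was -0.95 (SE 0.45, adjusted p = 0.398). Without PiZ/Chop-/- library 2 it was -1.56 (adjusted p = 0.0172), without a filter on low counts -0.93 (0.0179), and without PiZ libraries 1 and 4 -0.58 (0.764). The wider difference without PiZ/Chop-/- library 2 was built in, since that library held the highest value of its group.

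Gnpnat1, which acetylates glucosamine phosphate in the following step, had 8.36, 19.0, 12.4 and 18.6 CPM in PiZ/Chop-/- livers against 20.9, 14.1, 23.5 and 37.0 CPM in PiZ livers (-0.72, SE 0.33, adjusted p = 0.367). PiZ library 2 lay among the PiZ/Chop-/- values. Uap1, which makes UDP-GlcNAc, was at -0.29 (adjusted p = 0.785), and Pgm3, with 82 reads, was not tested. On the mannose side, Pmm2, phosphomannomutase, had 31.6, 35.1, 27.3 and 31.2 CPM in PiZ/Chop-/- livers and 33.8, 45.7, 40.2 and 17.6 CPM in PiZ livers (-0.14, SE 0.26, adjusted p = 0.873), and Mpi was at -0.40 (0.563). PiZ library 4 was the lowest of all 8 libraries for both.

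Beyond these 6, 19 genes of sugar nucleotide supply and transport were listed, of which 14 were tested, 9 were below 0 and 0 passed. Gmppb, which makes the GDP-mannose that dolichol-phosphate mannose synthase uses, had 51.1, 118, 25.8 and 33.5 CPM in PiZ/Chop-/- livers against 124, 74.3, 87.1 and 144 CPM in PiZ livers (-0.92, SE 0.46, adjusted p = 0.427). As with Gfpt1, PiZ/Chop-/- library 2 lay within the PiZ range and the other 3 below it. Without that library Gmppb was at -1.53 (adjusted p = 0.0142), but leaving out the highest value of a group builds in such a widening and adds no support. Nans, which makes sialic acid phosphate, did not overlap between the groups, at 18.9 to 31.0 CPM in PiZ/Chop-/- livers against 35.0 to 55.1 CPM in PiZ livers (-0.63, adjusted p = 0.265), and Ugp2, which makes UDP-glucose, was at -0.31 (0.522).

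Libraries differed within the PiZ/Chop-/- group, and library 2 was the one nearest to PiZ in the scores of OST and of assembly. To set libraries side by side, log2 CPM was centred on each gene's mean over the 8 libraries, and the median over the tested genes of a list was taken as its score. For the OST genes it was -0.18, 0.15, -0.38 and -0.26 in PiZ/Chop-/- livers against 0.20, 0.12, 0.09 and 0.40 in PiZ livers. Lipid-linked glycan assembly gave -0.09, 0.20, -0.76 and -0.28 in PiZ/Chop-/- livers against 0.06, 0.26, 0.33 and 0.27 in PiZ livers. In both, PiZ/Chop-/- library 2 had a PiZ-range score and the other 3 libraries were below all of PiZ. Over the 41 genes the score was -0.09, 0.04, -0.34 and -0.16 in PiZ/Chop-/- livers against 0.20, 0.10, 0.11 and 0.29 in PiZ livers, with no overlap. Such a gap was not particular to these genes. Scores of the Kupffer cell, stellate cell, sinusoidal endothelial and T, B and NK cell markers listed below did not overlap either. Within the PiZ/Chop-/- group, library 2 was the highest for 20 of the 41 genes, where it was the highest for 27.1% of all tested genes. Golgi enzymes showed no such order, with scores of -0.17 to 0.26 in PiZ/Chop-/- livers and -0.25 to 0.22 in PiZ livers. In the dolichol and ER glucosidase lists, library 1 had the highest PiZ/Chop-/- score (0.07 and 0.09), and library 2 stood at -0.13 and 0.06. For hexosamine and mannose supply library 2 was the highest of its group, at 0.14.

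**Figure D3:**
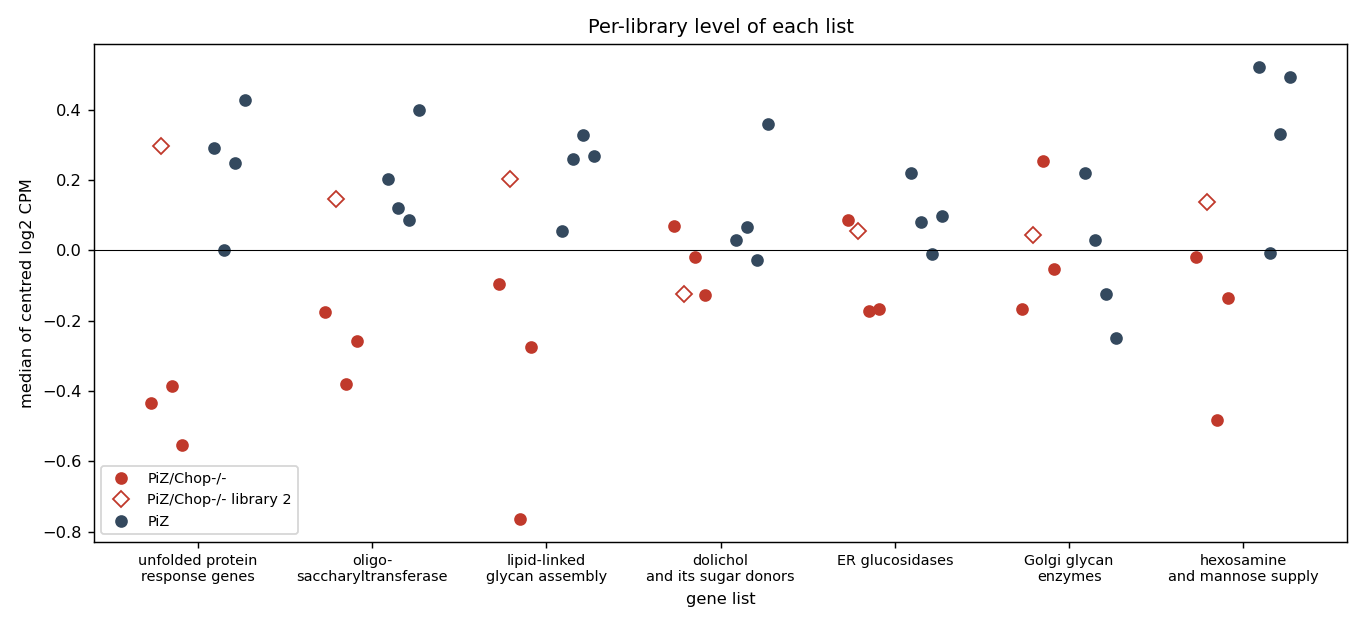
Score of each list (y axis, median of centred log2 CPM) per library, PiZ/Chop-/- left and PiZ right in each list, with PiZ/Chop-/- library 2 as an open diamond. That library lies at 0.30 for the unfolded protein response and at 0.15 for OST, among the PiZ points, while the other PiZ/Chop-/- libraries lie below 0 in both lists.

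In the list for the unfolded protein response, too, PiZ/Chop-/- library 2 scored within the PiZ range. Hspa5, the ER chaperone BiP, stood at 2682, 5736, 1830.4 and 2015 CPM in PiZ/Chop-/- livers against 7071, 4760.2, 5595 and 7316 CPM in PiZ livers (-1.01, adjusted p = 0.206; -1.50 and 0.00686 without PiZ/Chop-/- library 2). Of the 12 listed genes, all tested, 10 were below 0, 4 were lower and 1 higher at an unadjusted p below 0.05, and 0 passed. Over all tested genes 6.85% were lower and 6.29% higher at that unadjusted level. Atf6 had 18.6, 37.4, 23.8 and 20.5 CPM in PiZ/Chop-/- livers against 38.7, 25.7, 49.5 and 40.8 CPM in PiZ livers (-0.64, adjusted p = 0.326). Xbp1 had its lower values in PiZ, at 136, 147, 125 and 207 CPM in PiZ/Chop-/- livers against 78.7, 99.1, 108 and 112 CPM in PiZ livers, with no overlap (0.63, adjusted p = 0.189). Reads from the 3′ end do not tell spliced from unspliced Xbp1. Dnajb9, a BiP cochaperone induced by XBP1, had the largest value of the list (-1.76, adjusted p = 0.205; -2.42 and 0.00688 without PiZ/Chop-/- library 2). With PiZ libraries 1 and 4 dropped, Hspa5 stood at -0.75 (adjusted p = 0.622) and Dnajb9 at -1.20 (0.425). The list median, -0.50 with all 8 libraries, moved to -0.29 in that fit, with 0 genes lower at an unadjusted p below 0.05. With PiZ/Chop-/- library 3 dropped it was -0.35 (2 lower). Dropping PiZ/Chop-/- library 2 gave -0.92 (7 lower). That library had the highest score of its group in this list, and the highest values of Hspa5 and Dnajb9. Wider differences without it were therefore built in and add no support. The scores were -0.43, 0.30, -0.39 and -0.55 in PiZ/Chop-/- livers and 0.29, -0.0003, 0.25 and 0.43 in PiZ livers. The part of this response in the glycosylation values was not tested.

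**Figure D4:**
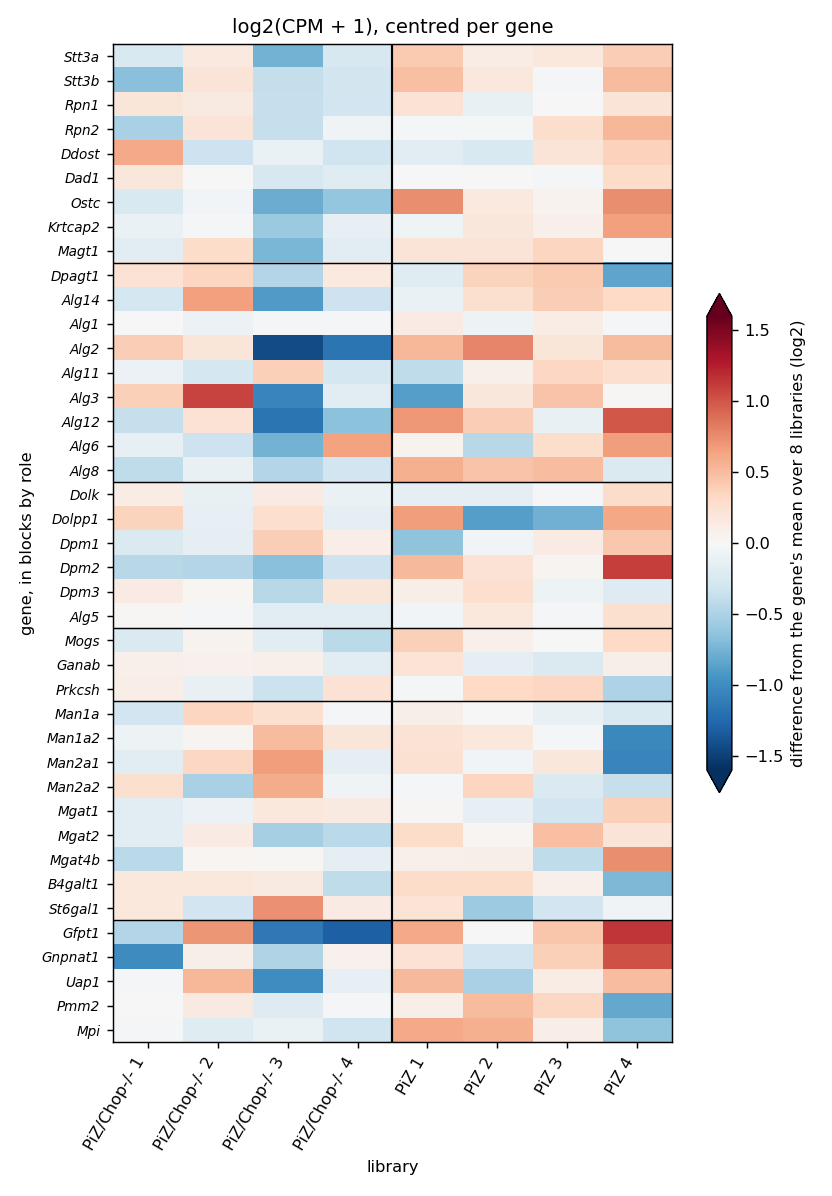
Log2(CPM + 1) of the 41 tested genes (rows, in blocks by role), each centred on its mean over 8 libraries, with PiZ/Chop-/- libraries left of the line and PiZ libraries right of it. PiZ/Chop-/- library 3 is the lowest of all libraries for 16 genes and PiZ library 4 the highest for 15.

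Leaving out PiZ/Chop-/- library 2 raised the number of genes at an unadjusted p below 0.05 to 15 lower and 0 higher among 43 tested, with 2 past the adjusted threshold, Gfpt1 and Ostc. That library was singled out for its PiZ-range scores in these same genes, so a wider difference without it was built in and adds no support. Over all 9009 genes tested in that fit, 7.61% were lower and 6.95% higher at the unadjusted level, and 1.88% passed the adjusted threshold. The OST median became -0.51, with 6 of 9 at an unadjusted p below 0.05, and that of assembly -0.50, over 10 genes. Leaving out PiZ libraries 1 and 4 instead, whose mean correlation with the rest of PiZ was lowest (0.931 and 0.914), left 3 lower and 1 higher at that level, 0 past the adjusted threshold and a median of -0.16. These libraries also had the highest PiZ scores over the members (0.20 and 0.29), so that fit is not a neutral check. Over all 9291 genes tested there, 6.45% were lower and 6.08% higher at the unadjusted level, and 1.22% passed the adjusted threshold. In that fit the OST median was -0.33, and 8 of 9 OST genes were below 0, 1 of them at an unadjusted p below 0.05.

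**Figure D5:**
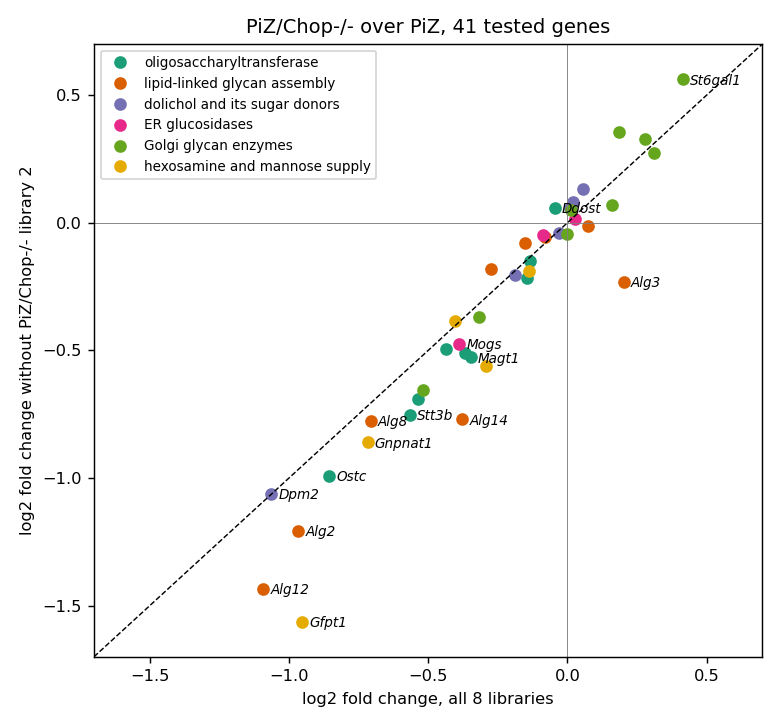
Log2 fold change of the 41 tested genes with all 8 libraries (x axis) and without PiZ/Chop-/- library 2 (y axis), coloured by role; the dashed line marks equal values. Gfpt1 moves to -1.56 against -0.95, while Dpm2 stays at -1.06.

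Markers of other liver cells were set beside these genes, since all cells use N-glycosylation. Of the listed markers 0 passed the adjusted threshold, and the lowest adjusted p was 0.0788, among stellate cell markers. Kupffer cell and macrophage markers, all 10 tested, were below 0 in 9 and had summed levels of 767 to 932 CPM in PiZ/Chop-/- livers against 989.6 to 1462 CPM in PiZ livers. Cd5l added the most CPM to these sums, with means of 317 CPM in PiZ/Chop-/- livers and 520 CPM in PiZ livers, so the sums lean on that gene. Clec4f was at -0.07 and Timd4 at 0.22. Stellate cell markers were below 0 in 6 of 6 tested, of 8 listed, with sums of 186 to 333 CPM in PiZ/Chop-/- livers and 309 to 399.8 CPM in PiZ livers. Sinusoidal endothelial markers were above 0 in 8 of 9, with sums of 268 to 327 CPM in PiZ/Chop-/- livers and 180.2 to 292 CPM in PiZ livers. Cholangiocyte sums were 18.9 to 50.0 CPM in PiZ/Chop-/- livers and 29.4 to 45.3 CPM in PiZ livers, and those of T, B and NK cells 5.58 to 11.9 CPM in PiZ/Chop-/- livers and 12.9 to 15.5 CPM in PiZ livers. Neutrophil sums were 3.72 to 85.6 CPM in PiZ/Chop-/- livers, the highest in library 2, and 8.07 to 31.6 CPM in PiZ livers. Red cell sums were 326 to 1146 CPM in PiZ/Chop-/- livers and 312 to 719.9 CPM in PiZ livers. No listed marker was at 0 in all 8 libraries, and the part of these cells in the values above was not tested.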

How the data were processed

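RNA of 8 liver samples was profiled by QuantSeq, a 3′ mRNA method, with single-end reads of 75 bases, per the labels' protocols. Each deposited file holds 1 raw count per gene, per the file headers, and the values are whole numbers. The submitters' processing notes name STAR, HTSeq and mm10, with no version. Neither the annotation nor the strand setting is stated in the sources used here. Symbols and positions came from GENCODE M21 (mm10), which held 52403 of 52550 mouse IDs. The members and lists were chosen with earlier results of these data known.

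All genes were fitted with edgeR 4.0.16 (R 4.3.3; limma 3.58.1, DESeq2 1.42.0): filterByExpr (minimum count 10), TMM, robust glmQLFit and glmQLFTest, PiZ/Chop-/- over PiZ, no covariate, Benjamini-Hochberg threshold 0.05. SE is the log2 fold change over the square root of F; 95% intervals use the fit's degrees of freedom. Scores use log2 CPM with a prior count of 2. The test was checked on simulated counts. Depth sets counting error only, since duplicate removal is not stated. Genes described library by library were those with an unadjusted p below 0.05 or groups that did not overlap, plus a set named by role whatever the outcome; of the other lists, up to 3 by lowest p. Magt1 lies outside this rule and was added after its values were seen. Exons of 19 members overlap another gene. For Alg1, Alg9, Dolpp1, Man2a2, Pgm3 and Pmm2 that gene, on the opposite strand, had over 50 reads. Without a stated strand setting their reads cannot be told apart. Gnpnat1 had the longest overlap, 2153 bases with Styx on the opposite strand, which had 0 reads. How reads in shared exons were counted is not known here.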

Additional observations from a re-analysis of the deposited data

Results flagged for a closer look

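In 3 of 82 groups of 4 libraries, 1 library stood far from the other 3 (Dixon's 95% critical value, which flags about 1 group in 20 by chance). Ganab stood at 133 CPM in PiZ/Chop-/- library 4, against 156 to 158 CPM in the other 3 libraries of its group. B4galt1 stood at 242 CPM in PiZ/Chop-/- library 4, against 356 to 363 CPM in the others. Dad1 stood at 231 CPM in PiZ library 4, against 184 to 189 CPM in the others.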

How the results depend on the processing

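With all 8 libraries 0 members and 89 genes in all passed the threshold. DESeq2, run without the expression filter, gave 1 member (Ostc) and 208 genes. The edgeR fit with no filter on low counts gave 3 members (Ostc, Gfpt1, Dpm2) and 357 genes. Each of these fits held 48 members and 19847 genes, against 41 members and 8669 genes in the main fit. With each library left out in turn the counts ran from 0 to 2 members and from 46 to 169 genes; the 2 members, Ostc and Gfpt1, and the 169 genes came without PiZ/Chop-/- library 2. Counts of 46, 49, 51 and 53 genes came without PiZ/Chop-/- library 3, 1 and 4 and PiZ library 3, in that order. Size factors by RLE, library size only, limma-voom, the 5 CPM filter, a non-robust fit and the omission of PiZ libraries 1 and 4 gave 0 members each. The median log2 fold change of the tested members, -0.15, stayed below 0 in each of these fits, from -0.24 to -0.11 over the fits with 1 library left out. Same-numbered libraries did not deviate together (correlations -0.051 to 0.049), so the numbers are not treated as pairs; with the replicate block 0 members and 76 genes passed. Ddit3 passed in every fit. Depth limits Alg2, Alg12, Fut8 and the other members with few reads.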
